A study of Mus musculus with 9 samples.

Results

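Axon guidance ligands and receptors were followed through 4 siRNA knockdowns and their controls in N2A cells, a mouse neuroblastoma line. The genes were chosen by name: class 3 to 7 semaphorins, plexins, neuropilins, Slits, Robos, ephrins and Eph receptors, netrins, Unc5 receptors and Dcc. Of 69 matching genes, 47 had at least 10 counts in at least 1 library and are described here, out of 21553 genes listed with counts. The first experiment held 1 library each of cells given siMbnl1/Mbnl2 (both genes targeted together), siNacc1 and siNT, the non-targeting pool. The second held 2 libraries each, lettered a and b, of cells given siSrrm4, siZfp871 and siNT. In every group siRNA pools were delivered with a lipid reagent and cells were collected after 48 hours. N2A is 1 tumour-derived line, and the labels do not tie a group's libraries to independent cultures, so p-values measure only the spread between these libraries, which may be technical. Each control carries the transfection as well.

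Guidance cues steer growing axons by attraction or repulsion. Semaphorins signal through plexins, with neuropilins as co-receptors for the secreted class 3 members. Slits bind Robo receptors, netrins bind Dcc and Unc5 receptors, and ephrins on one cell bind Eph receptors on another. Srrm4 is a neuronal splicing factor known for promoting microexons, very short exons, and Mbnl1 and Mbnl2 are also splicing regulators. Nacc1 belongs to the BTB domain proteins that act on transcription, and Zfp871 is a zinc finger protein.

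Library totals were 50086176 to 63715449 counts in the first experiment and 44186088 to 61159670 in the second. The targeted genes were lower in the libraries labelled for them. Srrm4 had 28.3 and 26.1 CPM (counts scaled to library size with TMM factors, not to length) in siSrrm4 libraries, against 66.8 and 96.7 CPM in siNT libraries. Zfp871 had 7.17 and 5.08 CPM in siZfp871 libraries, against 17.6 and 26.2 in siNT libraries. Srrm4 was also at 44.9 and 53.7 CPM in siZfp871 libraries, below both controls, though not called (adjusted p = 0.0990, edgeR quasi-likelihood test). In the first experiment the log2 differences from siNT were -1.46 for Mbnl1 and -1.85 for Mbnl2 in the siMbnl1/Mbnl2 library, and -2.003 for Nacc1 in the siNacc1 library. All 14 neuroblastoma and neuron markers were detected. The summed CPM of 9 mesenchymal markers was 1.99 and 7.62 in siSrrm4 libraries and 30.2 and 102.5 in siZfp871 libraries, against 4.88 and 15.9 in siNT libraries of the second experiment. Acta2, a smooth muscle actin, made up most of it in siZfp871 libraries, with 1303 and 5113 counts, against 164 and 684 counts in siNT libraries, without being called (log2 change 2.87, adjusted p = 0.178, edgeR). The other tested markers of the list, Dcn and Pdgfra, had negative log2 changes of -1.22 and -0.55, not called either (adjusted p = 0.218 and 0.408, edgeR). Col3a1 and Twist1, also on that list, were at 0 in every library, and the part of this difference in the results below was not tested.

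Sequences of some exons of the splicing results follow, called and not called, and show how little is gained or lost at each of these. Capitals mark the exon, and the lower case letters are the 30 bases of the neighbouring exons on either side in the spliced transcript. All of those shown are coding and a whole number of codons long. The Sema6d exons and the 191-nt Plxna3 exon described later are not shown. That Plxna3 exon is coding but not a whole number of codons long. Letters are from GENCODE transcripts of build GRCm38, matched by gene, exon length and the lengths of both neighbouring introns to the events that the files place on mm9.
Slit2 12-nt exon (mm9 chr5:48582242-48582253, plus strand): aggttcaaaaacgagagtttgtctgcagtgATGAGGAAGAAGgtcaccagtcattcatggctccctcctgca
Slit2 24-nt exon (mm9 chr5:48612206-48612229, plus strand): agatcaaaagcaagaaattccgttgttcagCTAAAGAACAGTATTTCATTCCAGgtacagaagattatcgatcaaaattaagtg
Slit2 27-nt exon (mm9 chr5:48654880-48654906, plus strand): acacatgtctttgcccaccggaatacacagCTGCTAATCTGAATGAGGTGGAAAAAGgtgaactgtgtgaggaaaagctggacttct
Unc5c 57-nt exon (mm9 chr3:141449821-141449877, plus strand): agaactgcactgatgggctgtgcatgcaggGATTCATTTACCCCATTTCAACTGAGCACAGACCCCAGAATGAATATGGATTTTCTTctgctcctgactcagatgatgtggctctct
Unc5b 33-nt exon (mm9 chr10:60239933-60239965, minus strand): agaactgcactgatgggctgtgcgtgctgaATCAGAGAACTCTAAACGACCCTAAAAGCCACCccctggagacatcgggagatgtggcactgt
The Unc5c and Unc5b exons sit behind nearly the same sequence: 27 of the 30 bases upstream of them are identical.

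Netrin receptors, neuropilins, plexins, Slits and a few semaphorins made up the upper end of the repertoire. Levels between genes are compared here per transcript length, as the authors' deposited cRPKM, a corrected RPKM, in the first experiment with its 1 library a group. Unc5b, a repulsive netrin receptor, had 48.9 cRPKM in the siMbnl1/Mbnl2 library and 41.3 in the siNacc1 library, against 47.5 cRPKM in the siNT library, where it stood first. Nrp1 had 40.2 and 63.3 cRPKM in those knockdown libraries, against 32.96 cRPKM in siNT, so it exceeded Unc5b in the siNacc1 library alone. Plxnb2, a receptor for class 4 semaphorins, had 25.4 and 24.8 cRPKM, against 29.01 cRPKM in siNT. Sema4d, a transmembrane semaphorin, had 29.3 and 25.3 cRPKM, against 28.9 cRPKM in siNT. The ranges over the 3 libraries overlapped for Unc5b and Nrp1 and for Plxnb2 and Sema4d, and with 1 control library the order of neighbours is only that of this library. Next in siNT came Plxna3 at 23.9, Unc5c at 22.5, Plxna1 at 21.6, Slit3 at 16.6 and Slit2 at 16.4 cRPKM. Of the 47 genes, 27 exceeded 1 cRPKM in the siNT library and 16 exceeded 10.

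**Figure D1:**
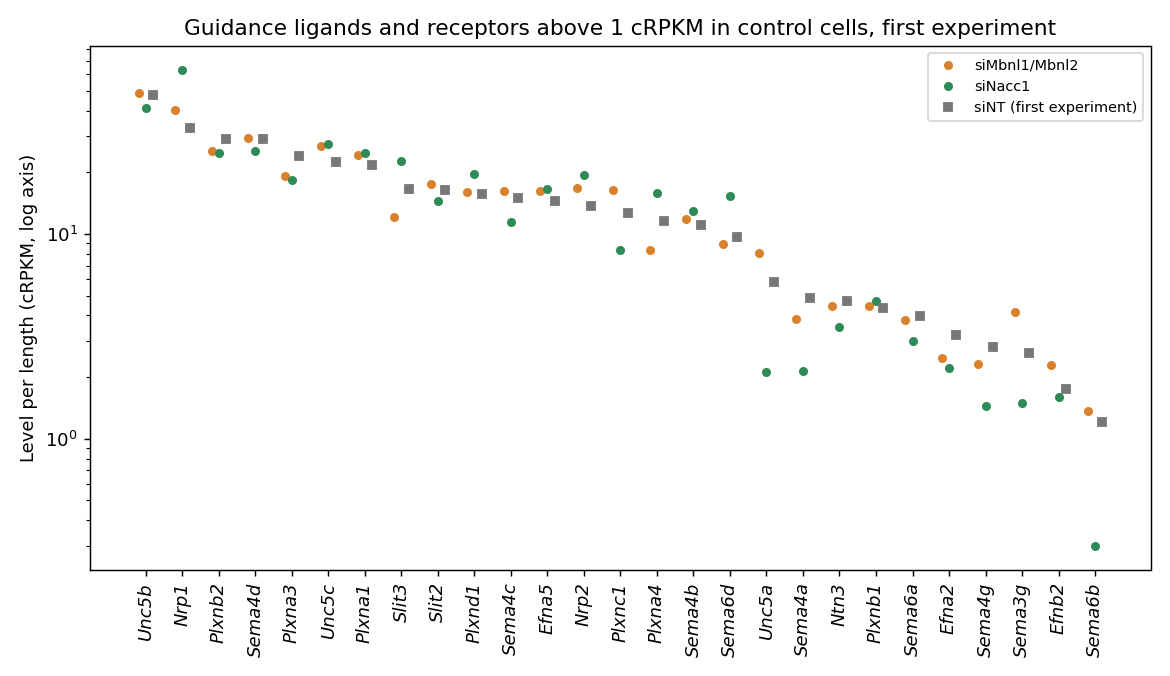
Level per transcript length (cRPKM, log axis) of the 27 guidance genes above 1 cRPKM in the siNT library of the first experiment, ordered by that level. Orange and green circles are the siMbnl1/Mbnl2 and siNacc1 libraries and grey squares the siNT library, 1 library each. Unc5b is at 47.5 in siNT, Nrp1 is highest in siNacc1 at 63.3, and the siNacc1 points of Unc5a, Sema4a and Sema6b lie below their squares.

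Some partners of expressed cues were at or near 0. Of the 22 genes under 10 counts, 13 had no count in any library, among them Dcc, the attractive netrin receptor, and the Eph receptors Epha4 and Ephb2. Other netrin receptors were present: Unc5b, Unc5c and Unc5a had 47.5, 22.5 and 5.81 cRPKM in the siNT library of the first experiment. Robo1, a receptor for Slits, reached 5 counts at most and Robo2 reached 8, while Slit2 and Slit3 were among the 10 highest genes. Robo3 was the only Robo gene with 10 counts, and it did not pass the filter on low counts in the second experiment. In all, 43 of the 47 genes passed that filter. Ephb4 was the highest Eph receptor, with 0.46 cRPKM in the siNT library of the first experiment, where Efna5, the highest ephrin, had 14.5 cRPKM. In these bulk samples, fewer cells expressing a gene and less RNA per cell cannot be told apart.

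After Zfp871 knockdown 3 receptor genes fell and none rose. These were Plxnb2, Plxnd1, a plexin known as the receptor of Sema3e, and Nrp2, a co-receptor for Sema3f. Calls needed a Benjamini-Hochberg adjusted p under 0.05 over 12378 genes in edgeR's quasi-likelihood test, which called 2.89% of all genes, 2.14% as lower; 3 of 43 is 6.98%. Without adjustment, 10 genes were lower and 2 higher at p under 0.05, together 27.9% of the 43, where 21.1% of all genes passed.

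Plxnb2 had 79.8 and 69.9 CPM in siZfp871 libraries, against 174 and 168 CPM in siNT libraries. In siSrrm4 libraries it had 177 and 171 CPM, overlapping the controls. Plxnb2 fell by 1.19 ± 0.10 on the log2 scale (SE, adjusted p = 0.0192, edgeR) in siZfp871 against siNT cells. Plxnd1 had 65.0 and 64.5 CPM in siZfp871 libraries, against 115 and 142 CPM in siNT libraries, and fell by 0.99 ± 0.12 (SE, adjusted p = 0.0228, edgeR). Both siZfp871 libraries lay well below both controls, and the siSrrm4 libraries, at 130 and 134 CPM, lay between the controls. These calls rest on few libraries, and calls over all genes were lost too when 1 was left out. Without siZfp871 library a, b or siNT library b, edgeR's adjusted p became 0.103, 0.241 and 0.0882 for Plxnb2 and 0.126, 0.247 and 0.0882 for Plxnd1.

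Nrp2 was lower in both knockdowns. It had 55.6 and 56.4 CPM in siSrrm4 libraries and 53.8 and 50.8 CPM in siZfp871 libraries, against 77.0 and 98.7 CPM in siNT libraries. The 4 knockdown libraries lay close together and below both controls, which the 2 comparisons share. Nrp2 fell by 0.65 ± 0.13 in siSrrm4 cells (SE, adjusted p = 0.0482, edgeR) and by 0.75 ± 0.13 in siZfp871 cells (SE, adjusted p = 0.0443, edgeR). Both adjusted p-values passed 0.05 when any 1 of the 6 libraries was left out, from 0.0603 to 0.230 for siSrrm4 and from 0.0580 to 0.320 for siZfp871. Its log2 change then ranged from -0.82 to -0.46 and from -0.90 to -0.56, and calls over all genes were lost in these fits too. Nrp2 was the only guidance gene called after Srrm4 knockdown, 1 of 43 or 2.33%, where 4.7% of all genes were called, 3.29% as lower and 1.41% as higher.

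**Figure D2:**
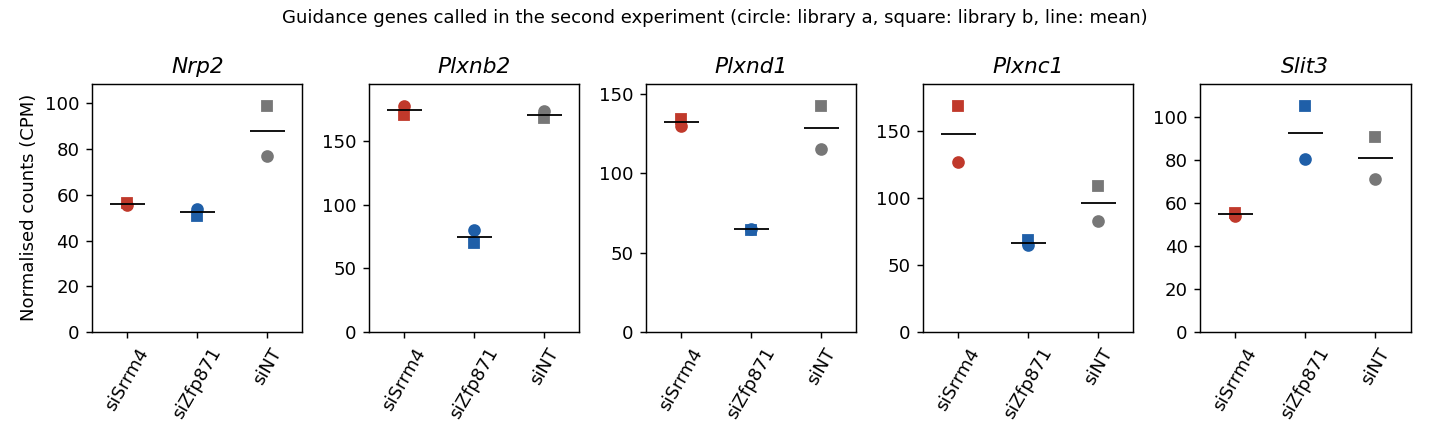
Normalised counts (CPM) of the 5 guidance genes called in any comparison of the second experiment, by library (circle a, square b, line the mean of a group). Nrp2 is low in both knockdowns, Plxnb2 and Plxnd1 in siZfp871 libraries, at 79.8 and 69.9 CPM and at 65.0 and 64.5 CPM.

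Set directly against each other, siZfp871 and siSrrm4 cells differed in 4 guidance genes, 9.30% of 43, with 11.1% of all genes called. In siZfp871 cells 3 of them were lower, where 5.57% of all genes were, and 1 was higher, where 5.53% were. Both siZfp871 libraries lay below both siSrrm4 libraries for 14 guidance genes and above them for 5, where 30.3% and 29.1% of all genes did. Plxnc1, the receptor of Sema7a, had 64.6 and 68.7 CPM in siZfp871 libraries, against 127 and 168 CPM in siSrrm4 libraries, with siNT libraries between them at 82.6 and 109 CPM. It was lower in siZfp871 than in siSrrm4 cells by a log2 difference of -1.15 ± 0.18 (SE, adjusted p = 0.0190, edgeR). Neither knockdown differed from siNT past the threshold (adjusted p = 0.0997 for siSrrm4, 0.173 for siZfp871, edgeR). Slit3 went the other way, with 80.3 and 105 CPM in siZfp871 libraries, against 54.0 and 55.5 CPM in siSrrm4 libraries, a log2 difference of 0.76 ± 0.17 (SE, adjusted p = 0.0385, edgeR). Plxnb2 and Plxnd1 completed the 4, with log2 differences of -1.22 ± 0.10 and -1.03 ± 0.12 (SE, adjusted p = 0.00865 and 0.0109, edgeR). As over all genes, calls were lost when single libraries were left out. None of the 4 kept its call without siSrrm4 library b, siZfp871 library a or siZfp871 library b: adjusted p was then 0.0522 to 0.104 for Plxnb2, 0.0656 to 0.117 for Plxnd1, 0.0857 to 0.143 for Plxnc1 and 0.0718 to 0.189 for Slit3, which also lost it without siSrrm4 library a, at 0.122.

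All 7 tested plexins had a negative log2 change in siZfp871 cells, with a median of -0.58, though only Plxnb2 and Plxnd1 were called. The siZfp871 libraries of Plxna1, Plxnb1 and Plxna4 overlapped the controls, so the sign is not settled for these genes. In siSrrm4 cells 3 of the 7 were negative. The plexin count was 7 under both scalings tried, and 5 without siZfp871 library a or without siNT library b. Plxna3, a plexin that works with neuropilins, had 70.2 and 45.3 CPM in siSrrm4 libraries and 62.8 and 61.7 CPM in siZfp871 libraries, against 95.3 and 90.5 CPM in siNT libraries. Each knockdown lay below both controls, but neither difference was called (adjusted p = 0.0953 and 0.166, edgeR). Over all 43 genes the median log2 change was -0.19 in siSrrm4 cells and -0.38 in siZfp871 cells, against -4.65e-05 and -0.01 over all genes tested. Negative values made up 65.1% and 74.4% of the 43, against 50.02% and 51.6% of all genes. In siZfp871 cells 17 genes had both libraries below both controls and 3 had both above, where 25.5% and 25% of all genes did. In siSrrm4 cells the counts were 10 and 2, where 26.5% and 27.3% of all genes did. The medians moved with single libraries. In siSrrm4 cells the median was -0.00296 without siNT library a, -0.03 without siSrrm4 library b and -0.06 without siNT library b, and 22 to 32 of the 43 were negative over the 6 fits that left out 1 library. In siZfp871 cells it was -0.21 without siZfp871 library b and -0.24 without siNT library a, with 26 to 34 negative. The plexin median was -0.31 without siNT library b.

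**Figure D3:**
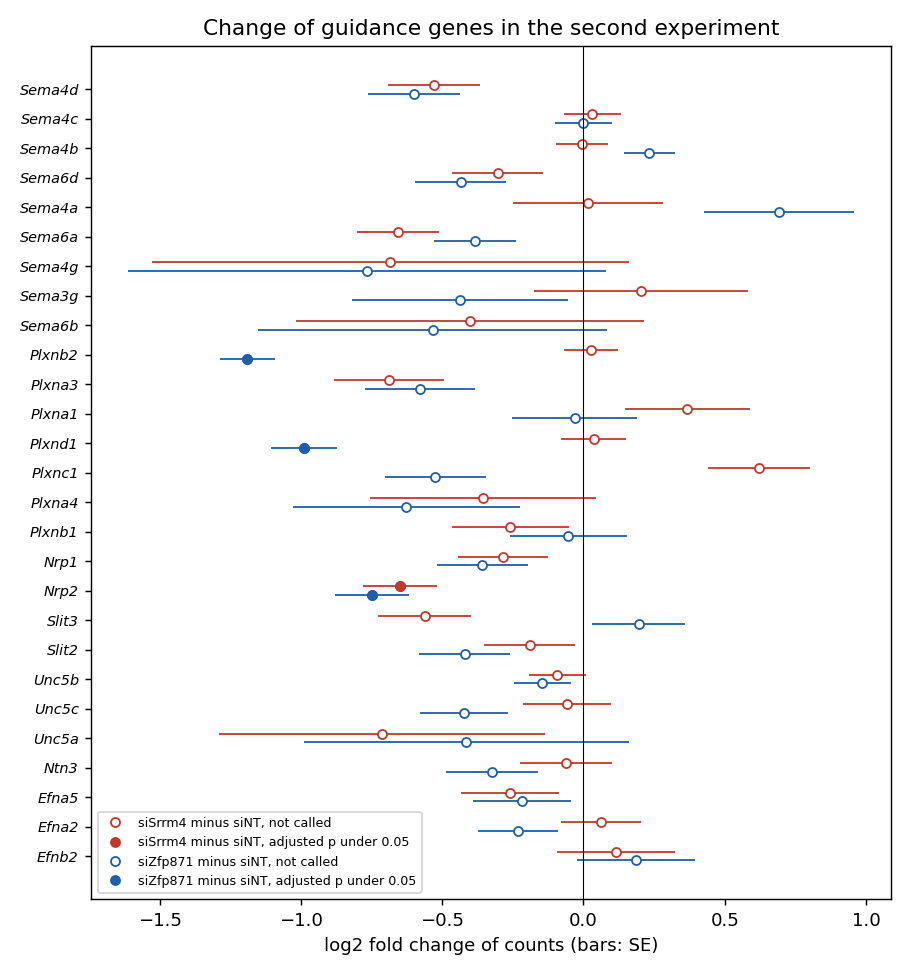
Log2 fold change (points) with its SE (bars) of the 27 guidance genes above 1 cRPKM in the siNT library of the first experiment, in siSrrm4 (red) and siZfp871 (blue) against siNT, grouped by family. Filled points passed an adjusted p of 0.05: Nrp2 in both, and Plxnb2 and Plxnd1 in siZfp871, at -1.19 and -0.99.

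Among the semaphorin ligands no change was called in either knockdown by the test used here. Sema4d had 94.9 and 74.1 CPM in siSrrm4 libraries and 84.5 and 76.4 CPM in siZfp871 libraries, against 136 and 108 CPM in siNT libraries. Both knockdowns lay below both controls (adjusted p = 0.114 and 0.108, edgeR). Sema6a, a transmembrane semaphorin, had 16.9 and 18.9 CPM in siSrrm4 libraries and 19.4 and 23.9 CPM in siZfp871 libraries, against 26.4 and 30.02 CPM in siNT libraries (adjusted p = 0.0583 and 0.207, edgeR). Sema4a lay above both controls in siZfp871 cells, with 18.5 and 16.6 CPM, against 12.9 and 8.78 CPM in siNT libraries (adjusted p = 0.209, edgeR). Sema4b had 48.7 and 51.7 CPM in siZfp871 libraries, against 41.1 and 44.3 CPM in siNT libraries. Sema6d had 41.8 and 33.6 CPM in siZfp871 libraries, below both siNT libraries at 55.2 and 46.6 CPM.

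The Unc5 receptors, Slit2 and the ephrins were not called in any of the 3 comparisons. Unc5b had 280 and 258 CPM in siSrrm4 libraries and 242 and 277 CPM in siZfp871 libraries, against 281 and 292 CPM in siNT libraries, so every knockdown library lay below both controls, by a small margin. Unc5c had 127 and 134 CPM in siZfp871 libraries, against 151 and 199 CPM in siNT libraries (adjusted p = 0.197, edgeR), while its siSrrm4 libraries overlapped the controls. Slit2 had 94.4 and 107 CPM in siZfp871 libraries, against 116 and 154 CPM in siNT libraries (adjusted p = 0.210, edgeR). Ntn3, the highest netrin, had 16.5 and 17.8 CPM in siZfp871 libraries, against 18.3 and 24.6 CPM in siNT libraries. Efna5 overlapped the controls in both knockdowns.

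In the authors' deposited table for the second experiment, 4 guidance genes were lower and 1 higher at an FDR under 0.05 in siSrrm4 cells, and 4 were lower in siZfp871 cells. Of the 15035 genes with an FDR in the authors' deposited table, 4.54% were lower and 2.36% higher in siSrrm4 cells, and 3.22% were lower in siZfp871 cells. That table gives Plxnc1 a log2 change of 0.62 (FDR 0.0298) and Slit3 one of -0.56 (FDR 0.0375) in siSrrm4 cells, which the test used here did not call. The same holds for Sema6a at -0.66 (FDR 0.0145) and Plxna3 at -0.69 (FDR 0.0252) in siSrrm4 cells. It also holds for Sema4d at -0.59 (FDR 0.0383) in siZfp871 cells.

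Separate lists held other genes of the pathway. Of 71 tested intracellular effectors, 6 were lower and none higher in siSrrm4 cells, and likewise 6 and none in siZfp871 cells. Of 34 further guidance receptors, ligands and adhesion molecules, 4 were lower and 1 higher in siSrrm4 cells, and 6 were lower in siZfp871 cells. Those shares are 8.45% and 14.7% in siSrrm4 cells, where 4.7% of all genes were called, and 8.45% and 17.6% in siZfp871 cells, where 2.89% were. The lists' median log2 changes were -0.12 and -0.28 in siSrrm4 cells and -0.10 and -0.29 in siZfp871 cells. Of the 14 neuroblastoma and neuron markers, 2 were lower in siSrrm4 and 3 in siZfp871 cells, and the part of this in the list counts was not tested.

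Among the effectors, Trim67, a ubiquitin ligase linked to netrin signalling, fell by 1.07 ± 0.17 in siSrrm4 cells and by 1.02 ± 0.17 in siZfp871 cells (SE, adjusted p = 0.0327 and 0.0423, edgeR). Limk2, a kinase of the actin regulator cofilin, fell by 0.78 ± 0.11 and 0.74 ± 0.11 (SE, adjusted p = 0.0250 and 0.0304, edgeR), and Dpysl5, a member of the collapsin response mediator family, by 0.57 and 0.93 (adjusted p = 0.0308 and 0.0223, edgeR). The other effectors called in siSrrm4 cells were Evl, Rgs3 and Sos1, with log2 changes of -0.52, -0.49 and -0.49 (adjusted p = 0.0428, 0.0482 and 0.0327, edgeR). In siZfp871 cells they were Myo10, Srgap3 and Crmp1, with -1.18, -0.83 and -0.50 (adjusted p = 0.0330, 0.0315 and 0.0481, edgeR). Srgap3 belongs to a family that binds Robo receptors, and Crmp1 is related to Dpysl5.

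Among the further receptors and ligands, Cdon, a cell surface co-receptor, was the one higher gene in siSrrm4 cells, with a log2 change of 1.20 ± 0.15 (SE, adjusted p = 0.0222, edgeR). Lingo1, a co-receptor for inhibitors of axon growth, the adhesion molecule Lrrc4b, the membrane protease Adam10 and Neo1, a netrin receptor related to Dcc, had log2 changes of -1.26, -1.10, -0.99 and -0.91 there (adjusted p = 0.0422, 0.0276, 0.0184 and 0.0288, edgeR). Set directly against siSrrm4 cells, siZfp871 cells had log2 differences of 1.01 for Lrrc4b, 0.88 for Adam10 and 1.00 for Neo1 (adjusted p = 0.0187, 0.00981 and 0.0145, edgeR). In siZfp871 cells Gfra1, a GDNF co-receptor, fell the most of the list, by 1.91 (adjusted p = 0.0305, edgeR). Flrt1, Dscaml1, Nrcam, L1cam and Rtn4, all cell surface or membrane proteins, followed with log2 changes of -1.42, -1.33, -1.19, -0.74 and -0.60 (adjusted p = 0.0277, 0.0375, 0.0275, 0.0239 and 0.0492, edgeR). Set against siSrrm4 cells, siZfp871 cells had log2 differences of -1.44 for Gfra1, -0.85 for Flrt1 and -1.13 for Dscaml1 (adjusted p = 0.0287, 0.0433 and 0.0282, edgeR). Of the 34 genes of this list, 3 were higher and 7 lower in siZfp871 than in siSrrm4 cells, 29.4%, and of the 71 effectors 2 were higher and 4 lower, 8.45%, where 11.1% of all genes were called. These effectors were Myo10, Srgap3, Abl1, Vasp, Dpysl2 and Crmp1, with log2 differences of -0.87, -0.81, 0.70, 0.62, -0.42 and -0.41 (adjusted p = 0.0327, 0.0172, 0.0272, 0.0233, 0.0345 and 0.0380, edgeR). Leaving out 1 library at a time took the adjusted p of each of these effectors and receptors past 0.05 for 3 to 6 of the 6 libraries, depending on gene and comparison.

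In the siNacc1 library 5 guidance genes were lower past the size rule used for the first experiment. With 1 library a group there is no replicate check and no p-value, so a gene had to reach 50 counts in 1 of the 2 libraries and differ at least 2-fold. The 5 are 14.3% of the 35 guidance genes that reached 50 counts, where 2.97% of all 11580 such genes were past the rule as lower. No guidance gene was past it as higher, where 0.406% of these 11580 genes were, and 3.38% of them were past it in either direction. All intervals in this experiment are 95% exact ones and cover counting error only. Sema6b, a transmembrane semaphorin, had 1.13 CPM in the siNacc1 library (interval 0.880 to 1.44), against 4.48 CPM in the siNT library (3.98 to 5.04). Unc5a, a netrin receptor, had 8.51 CPM (7.79 to 9.29), against 23.2 CPM in the siNT library (22.1 to 24.5). Sema4a had 6.85 CPM (6.20 to 7.54), against 15.5 CPM in the siNT library (14.5 to 16.5). The intervals of the 2 libraries lay apart for each of them. Slit1 and Sema3f, at 30 and 17 counts in the siNacc1 library, against 108 and 51 counts in the siNT library, complete the 5, and both reached 50 counts only in the siNT library, where they were higher. Their log2 changes were -1.95 for Sema6b, -1.71 for Slit1, -1.44 for Unc5a, -1.41 for Sema3f and -1.18 for Sema4a.

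Some of these genes also varied between libraries of the same group in the second experiment. Unc5a had 19.2 and 6.90 CPM in siSrrm4 libraries a and b and 19.8 and 12.2 CPM in siZfp871 libraries, against 29.99 and 12.7 CPM in siNT libraries. Slit1 was at least 2-fold higher in a than in b in all 3 groups, as were Efna1 and Sema4g from outside this set. That is 6.98% of the tested guidance genes, where 1.29% of all genes were. Sema4a had 12.9 and 8.78 CPM in siNT libraries a and b but 18.5 and 16.6 CPM in siZfp871 libraries. Sema3f had 0.756 and 0.376 CPM in siNT libraries but 0.492 and 0.715 CPM, the other way, in siZfp871 libraries. Sema6b had 5.98 and 2.15 CPM in siNT libraries a and b. Differences of this size between libraries given the same siRNA stand beside the single siNacc1 library, and their part in its values was not tested.

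The co-receptor Nrp1 was the gene farthest above control in the siNacc1 library, without reaching 2-fold. It had 375 CPM (370 to 380), against 195 CPM in the siNT library (191 to 198), a log2 change of 0.95. Nrp2 stood 0.50 higher on the same scale and Sema6d 0.68 higher. In the siMbnl1/Mbnl2 library only Sema4f was past the rule, as higher. That is 1 of 37 eligible guidance genes, 2.70%, where 1.02% of all 11604 eligible genes were past it, 0.758% as higher and 0.259% as lower. Sema4f had 85 counts in that library, against 49 counts in the siNT library, a log2 change of 1.05 (interval 0.56 to 1.62). It thus reached the minimum only in the library where it was higher. The eligible guidance genes had a median log2 change of 0.02 in the siMbnl1/Mbnl2 library, close to the -0.01 of all genes, and of -0.20 in the siNacc1 library, against 0.01.

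**Figure D4:**
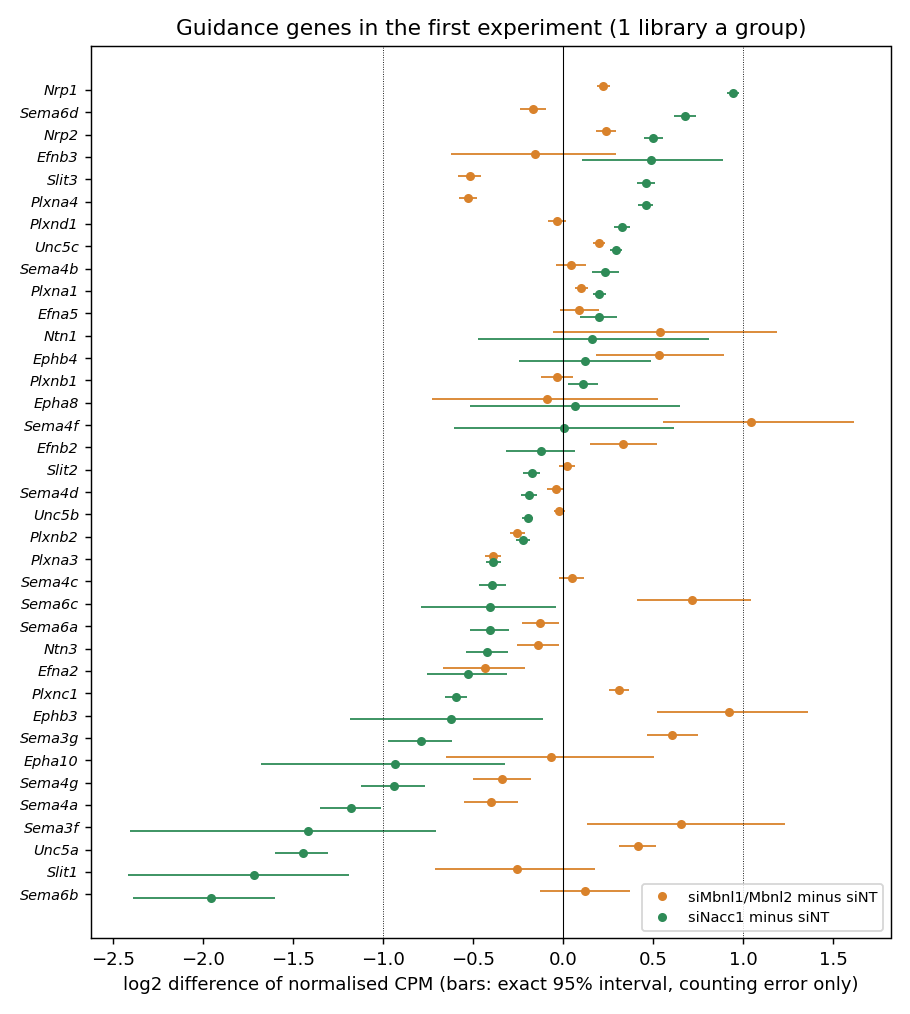
Log2 difference of normalised CPM in the first experiment for guidance genes with at least 50 counts in a library, in siMbnl1/Mbnl2 (orange) and siNacc1 (green) against siNT; bars are exact 95% intervals for counting error and dotted lines mark 2-fold. The 5 siNacc1 points beyond the left line run from Sema4a at -1.18 to Sema6b at -1.95.

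Splicing of guidance genes changed at 2 exons after Srrm4 knockdown, in a test whose setting decides both calls. Inclusion is given as percent spliced in (PSI), the share of reads that include the exon. Exons needed 10 reads in each of the 6 libraries, which left 62 exons of 20 guidance genes. Most of these 62 were near fully included: 46 had a mean control PSI over 90, 7 under 10, and 9 in between. For a call, the adjusted p had to be under 0.05 and the PSI difference at least 10 points. In siSrrm4 cells 1 guidance exon was called lower, where 0.78% of all 20266 exons were, and 1 higher, where 0.0543% were. In siZfp871 cells, and between siZfp871 and siSrrm4 cells, no guidance exon was called by edgeR's quasi-likelihood test. Of all exons 0.434% were called lower and 0.0345% higher in siZfp871 cells, and 0.133% lower and 0.148% higher in siZfp871 than in siSrrm4 cells. At an unadjusted p under 0.05, 7 guidance exons passed in siSrrm4 cells, 11 in siZfp871 cells and 6 between the knockdowns. Those are 11.3%, 17.7% and 9.68% of the 62, where 8.78%, 7.79% and 8.74% of all exons passed. Limma called none of the 62 in any of the 3 comparisons, but of all exons it called only 11 in siSrrm4 cells. It called 0 of all exons in siZfp871 cells and 0 between the knockdowns. The likelihood ratio test called none in siZfp871 cells against siNT, where it called 185 of all exons, and 2 between the knockdowns, where it called 169.

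The 12-nt microexon of Slit2 was the lower one. Its PSI was 73.3 and 74.6 in siSrrm4 libraries, against 99.0 and 94.4 in siNT libraries, with 68 to 126 reads a library. That is a difference of -22.7 points (adjusted p = 0.000645, edgeR quasi-likelihood test). In siZfp871 libraries it was 88.4 and 88.9, between the other groups and not called (adjusted p = 0.601, edgeR). Srrm4 itself was lower in siZfp871 than in siNT libraries, as given above, and its part in this value was not tested. In the first experiment the exon was at 95.7 in the siMbnl1/Mbnl2 library and 96.6 in the siNacc1 library, against 94.9 in the siNT library, with overlapping intervals.

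The other microexons of Slit2, whose protein repels axons, differed from it. The 24-nt exon had a PSI of 25.4 and 14.9 in siSrrm4 libraries and 41.6 and 48.8 in siZfp871 libraries, against 37.2 and 37.0 in siNT libraries. Its siSrrm4 libraries lay below both controls, but the difference of -16.9 points was not called (adjusted p = 0.303, edgeR), nor was the 25.05 points by which siZfp871 exceeded siSrrm4 cells (adjusted p = 0.0922, edgeR). Without siSrrm4 library a, the library nearer to the controls, both differences were called (adjusted p = 0.00380 and 0.000209, edgeR), but siSrrm4 then has 1 library and the spread comes from the other groups alone. In the first experiment the 24-nt exon was at 25.1 in the siMbnl1/Mbnl2 library and 22.9 in the siNacc1 library, against 33.1 in the siNT library, with overlapping intervals. The 27-nt exon was rarely included, with 1.38 and 1.97 in siSrrm4 libraries and 1.59 and 1.08 in siZfp871 libraries, against 3.33 and 8.50 in siNT libraries. In the first experiment it was at 12.9 in the siMbnl1/Mbnl2 library (interval 8.52 to 18.4), against 4.92 in the siNT library (2.38 to 8.29), and these intervals lay apart.

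The 57-nt exon of Unc5c was the higher one. Its PSI was 21.1 and 24.4 in siSrrm4 libraries, against 8.65 and 10.4 in siNT libraries, a difference of 13.3 points (adjusted p = 0.0265, edgeR quasi-likelihood test). The siZfp871 libraries, at 10.0 and 10.8, overlapped the controls. Without siSrrm4 library a or b or siNT library a or b, the adjusted p became 0.107, 0.453, 0.251 and 0.183; the Slit2 12-nt exon kept its call without each library in turn, with 0.0467 the highest adjusted p. The quasi-likelihood test was run with 8 dispersion settings and 2 definitions of library size, and the one reported was settled with their counts of calls known. Of these 16 fits, 6 called the Slit2 12-nt exon and 5 the Unc5c exon, and fits with the tool's own dispersion and trend called neither. Limma on logit PSI called neither. Limma gave adjusted p of 0.194 for the Slit2 exon and 0.213 for the Unc5c exon. In the first experiment the Unc5c exon stood at 20.4 in the siNacc1 library (interval 16.4 to 24.9), against 10.5 in the siNT library (7.44 to 14.8). The 33-nt exon of Unc5b, preceded by the similar sequence shown above, was at 97.1 and 95.4 in siSrrm4 libraries, against 96.7 and 92.8 in siNT libraries. In the siMbnl1/Mbnl2 library it was at 88.5 (interval 84.9 to 91.7), against 95.8 in the siNT library of the first experiment (93.3 to 97.4), with intervals apart.

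Neighbouring exons of Sema6d also stood apart from control in siSrrm4 cells without being called. The 57-nt exon had a PSI of 32.3 and 36.5 in siSrrm4 libraries, against 20 and 18.5 in siNT libraries (adjusted p = 0.631, edgeR). The 156-nt exon had 52.9 and 60 in siSrrm4 libraries, against 39.7 and 34.2 in siNT libraries (adjusted p = 0.542, edgeR), with 36 to 53 reads a library over the 3 groups. In all, 5 of the 62 exons, 8.06%, differed by at least 10 points with libraries that did not overlap in siSrrm4 cells, where 4.48% of all exons did. In siZfp871 cells none did against siNT, where 4.06% of all exons did, and 5 did against siSrrm4 cells, where 4.19% of all exons did. The 5 in siSrrm4 cells against siNT were the 12-nt and 24-nt exons of Slit2, the 57-nt exon of Unc5c and both Sema6d exons. Both Sema6d exons lie between the same neighbouring exons. Reads that skip both can enter both PSI values, so these 2 exons are not independent. In the authors' deposited table a mark for differential inclusion in siSrrm4 cells stands at 3 of the 62, the 12-nt and 24-nt exons of Slit2 and the 57-nt exon of Unc5c, and none in siZfp871 cells.

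**Figure D5:**
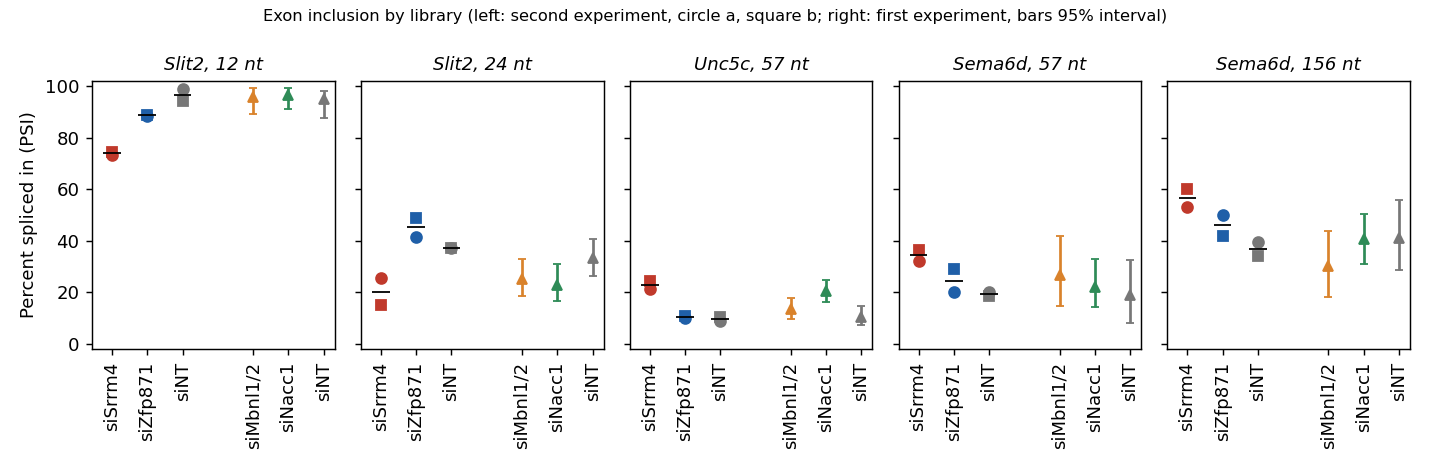
Percent spliced in of 5 exons by library: siSrrm4, siZfp871 and siNT of the second experiment on the left (circle a, square b, line the mean) and siMbnl1/Mbnl2, siNacc1 and siNT of the first on the right, with exact 95% intervals. The Slit2 12-nt exon is at 73.3 and 74.6 in siSrrm4 libraries and the Unc5c exon at 21.1 and 24.4.

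In the first experiment 99 guidance exons had at least 20 reads in all 3 libraries. A 191-nt exon of Plxna3 was the only one to differ by 20 points with intervals apart, at 72.0 in the siNacc1 library (63.5 to 79.2), against 93.3 in the siNT library (89.7 to 96.2). That is 1 of 99, where 0.498% of all eligible exons passed. In the second experiment the Plxna3 exon was at 94.4 and 83.0 in siSrrm4 libraries and 90.6 and 88.1 in siZfp871 libraries, against 92.4 and 91.0 in siNT libraries. The intervals of the first experiment do not cover such differences between libraries given the same siRNA. No guidance exon passed in the siMbnl1/Mbnl2 library, where 0.534% of all eligible exons did. Intervals were apart for 3 of the 99 in each knockdown, where 3.18% of all exons were apart in the siNacc1 library and 2.86% in the siMbnl1/Mbnl2 library. The authors' deposited table marks 2 of the 99 as differential in siNacc1 cells, the Plxna3 exon and the 24-nt exon of Slit2. It marks 0 of them in siMbnl1/Mbnl2 cells.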

How the data were processed

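Raw read counts per gene, cRPKM (an RPKM with a correction not described in the sources used here), log2 fold changes and FDR p-values were deposited by the authors, per the file headers. The submitters' processing notes name mm9, CASAVA 1.8 and edgeR without saying what each was used for. Splicing was quantified by the authors with vast-tools, per the labels; their filtered PSI values are in percent, and the primary tables hold inclusion and exclusion reads, from which PSI was recomputed. The median distance between recomputed and deposited percent values was 0.000214 points in the first experiment and 0.285 points in the second. In R 4.3.3, counts of the second experiment were tested with edgeR 4.0.16 (filterByExpr, TMM, quasi-likelihood) in 1 fit to 6 libraries, with no replicate block; DESeq2 1.42.0 and limma 3.58.1 served as alternatives. Entries without counts (1114) and 20 other columns of per-sample values, the second experiment's cRPKM among them, were not used. A gene's log2 change in the first experiment used a prior count of 2.

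Exon reads were fitted in edgeR with a term for each library and inclusion by group, a separate dispersion for each exon and no abundance trend, on exons with PSI from 2 to 98 in at least 1 library. Before this setting was settled, 16 fits (8 dispersion settings with 2 library sizes) had been run on these data and their numbers of calls seen. It follows the wording of the written design, and over the 16 fits the number of exons called in siSrrm4 against siNT cells ran from 0 to 233. Gene and exon tests were also run on simulated data with 200 known changes each, in siSrrm4 against siNT libraries. The gene test recovered 187 changes of 1 or 2 on the log2 scale, with 10 false calls. The exon test reported here recovered 58 changes of 30 points, 29%, with 2 false calls. With a spread that differed between exons it recovered 89 of 200, with 9 false calls. Most such exon changes were missed, so an exon not called is not shown to be unchanged.

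The members and gene lists were chosen with earlier results of these data known. Genes named with full values were those called, those past the size rule, the highest of each family, and then genes with libraries apart from the controls; exons likewise. Called genes of the pathway lists were named, up to 6 a list and comparison.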

Additional observations from a re-analysis of the deposited data

How the results depend on the processing

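The counts of called guidance genes depended on how the spread was estimated. In siSrrm4 cells the count of 1 became 6 with DESeq2's Wald test (all genes 582 and 1747). It became 2 with no filter on low counts (all genes 782) and 0 with only the 4 libraries compared (all genes 0). In siZfp871 cells the count of 3 became 5 with the Wald test (all genes 358 and 1351). With 1 library left out in turn, a group holds 1 library. Calls over all genes were then lost in every such fit and comparison, and those of guidance genes in most. A call lost there is thus not particular to a gene. A replicate block on the column letter gave 13, 19 and 17 called guidance genes in the same 3 comparisons, and 4565, 3854 and 5191 of all genes. Differences between a and b correlated between groups at r = 0.689 to 0.802 across genes, but no source ties a letter to a replicate number or a shared day, so the letters were not treated as pairs. In the siNacc1 library a minimum of 10 counts gave 9 guidance genes in place of 5, and 645 of all genes in place of 391. In siSrrm4 cells the 2 called exons became 0 with limma, which called 11 of all exons. They also became 0 with the tool's own dispersion and trend and with 1 common dispersion, both chosen after seeing the data. Those fits called 25 and 0 of all exons. With a library left out, not every fit kept both calls. Over the 16 fits of the quasi-likelihood test run on these data, the called guidance exons numbered 0 to 3. Between the knockdowns the count of 0 exons became 2 with the likelihood ratio test and 1 with the block, and 0 to 1 with a library left out. No named change with libraries apart turned its sign. With all knockdown libraries on the same side of the controls, leaving out a library or rescaling slightly could hardly turn it, so this is no support. Of the 78 gene and comparison pairs with overlapping libraries, 63 turned sign under some alternative, so their fold changes are not given in the text. The limit to pairs with libraries apart was set after turns of sign had been seen. Depth also limits the exons: the Slit2 12-nt exon had 68 to 126 reads a library and the 57-nt and 156-nt Sema6d exons 33 to 53.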
